A study of Capra hircus with 2 samples.

Results

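The miR-29 family was examined in the mammary gland of the dairy goat (Capra hircus) at early involution and early lactation. Its 3 members, miR-29a, miR-29b and miR-29c, were measured as sequenced small RNA tags. Tags of 18 nt or longer were counted to a member if they matched its mature sequence without mismatch, lacked no more than 2 bases at the 5′ end and ran no more than 3 bases past the 3′ end. Both arms of each hairpin were counted, which gave 7 mature arms, of which 5 reached 10 tags per 1000000 clean tags (TPM) in a library. They stood beside 130 other recognised miRNAs past that level. The family took 42634 of 7385833 clean tags in involution and 11645 of 18031615 in lactation. No tag fitted more than 1 member.

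The involution library was made from mammary tissue taken on day 5 after forced weaning at late lactation, which was day 218 after parturition. The lactation library was made from tissue of day 10 after parturition. For each stage, RNA of 5 goats was pooled in equal amounts into 1 library, so there was no replicate, the spread between goats is unknown, and no p-value was computed. Weaning and the time since parturition differed together between the libraries and cannot be told apart. Every interval given is a 95% interval for counting error only. In whole tissue, a change in the cells present and a change in the RNA of each cell cannot be told apart either.

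A miRNA acts by pairing of its seed, bases 2 to 8 from its 5′ end, with sites in messenger RNAs, which lowers the stability or translation of those messengers. The miR-29 family is known in mice and humans for targeting messengers of the extracellular matrix, among them several collagens, elastin and fibrillin, and its members are low in many fibrotic tissues. Involution is the stage at which milk secretion stops, secretory epithelium dies and the matrix around the alveoli is degraded and rebuilt. Messenger RNA and protein were not measured in these libraries, so the values concern the miRNAs alone.

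The mature sequences are shown because the members differ by very few bases, and their separate counts rest on those bases. Each was read from the most abundant deposited tag of its kind, with U written as T and the seed in capitals.
miR-29a-3p: tAGCACCAtctgaaatcggtta
miR-29b-3p: tAGCACCAtttgaaatcagtgtt
miR-29c-3p: tAGCACCAtttgaaatcggtta
miR-29a-5p: aCTGATTTcttttggtgttcaga
miR-29b-1-5p: gCTGGTTTcatatggtggtttaga
miR-29b-2-5p: cTGGTTTCacatggtggcttaga
miR-29c-5p: tGACCGATttctcctggtgtt
The 3p arms share the seed AGCACCA, which no other group of tags in these libraries carried. Counted from 1 at the 5′ end, miR-29a and miR-29c differ by the single substitution C10T. From miR-29c to miR-29b the substitutions are G18A, T21G and A22T, and miR-29b ends 1 base later. The 5p arms, released from the opposite strand of the hairpin, share no seed with the 3p arms. In human and mouse, miR-29b comes from a pair of hairpins with one 3p sequence, and only their 5p arms tell these hairpins apart. RefSeq, in its genes of assembly ARS1.2, lists MIR29A, MIR29B and MIR29C, with MIR29B and MIR29C on one chromosome and 1 gene, LOC102169209, between them. It lists only 1 MIR29B gene, whereas tags of both miR-29b 5p arms were found.

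Read depth and library quality differed between the stages. The lactation library was 2.44 times deeper, and 1 tag equalled 0.135 TPM in involution and 0.0555 TPM in lactation. Contaminants of the 5′ adaptor made up 14.03% of high-quality reads in involution and 0.0505% in lactation. Tags of 18 to 21 nt made up 41.3% of clean tags in involution and 30.6% in lactation. The part of these differences in the results was not tested.

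All 3 members were more abundant in involution. Together the 7 arms reached 5772 TPM in involution and 646 TPM in lactation, an 8.94-fold higher level (8.76 to 9.12). As a share of clean tags this was 0.577% in involution and 0.0646% in lactation. The 3p arms supplied nearly all of it, with 5704 TPM in involution and 635 TPM in lactation.

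miR-29a, the most abundant member in both libraries, gave 20545 tags or 2782 TPM in involution and 10365 tags or 575 TPM in lactation. Its level was 4.84-fold higher in involution (4.73 to 4.96). miR-29b gave 8082 tags or 1094 TPM in involution and 347 tags or 19.2 TPM in lactation, which is 56.9-fold higher (51.1 to 63.5). It was the least abundant member at both stages and the one with the largest ratio. miR-29c gave 13501 tags or 1828 TPM in involution and 741 tags or 41.1 TPM in lactation, a level 44.5-fold higher (41.3 to 48.0). The order of the levels, miR-29a above miR-29c above miR-29b, was thus the same at both stages, and no 2 members of that order had overlapping intervals within a library.

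**Figure D1:**
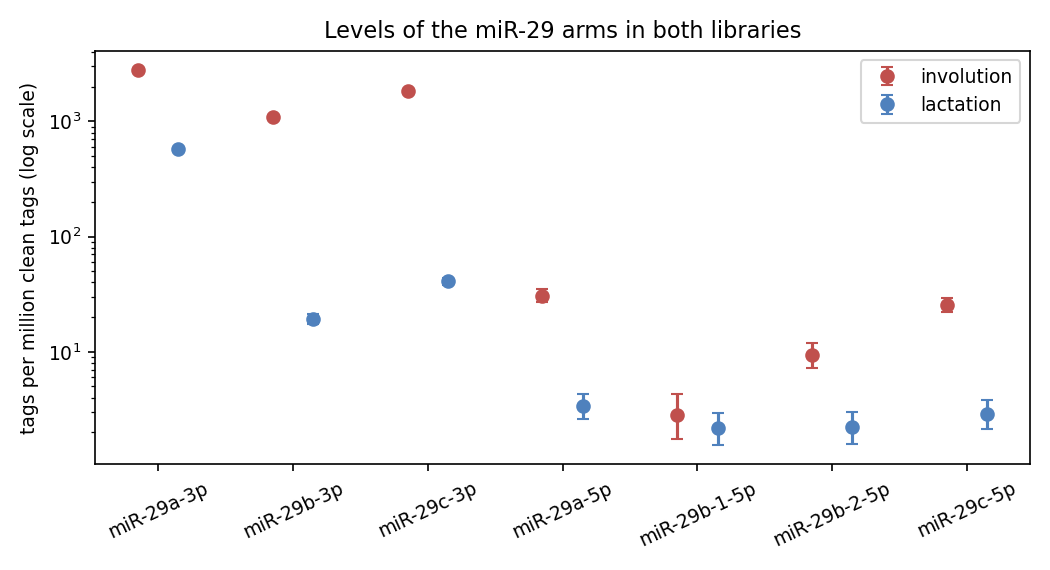
Level of each miR-29 arm in the involution library (left point of each pair) and the lactation library (right point), in TPM on a log axis; bars are 95% Poisson intervals for counting error. The 3p arms of miR-29b and miR-29c lie near that of miR-29a in involution and far below it in lactation.

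A higher level in involution was common among miRNAs, which is the background for these ratios. Of the 130 other recognised miRNAs, 56 were higher in involution by 2-fold or more with an interval beyond 1, or 43.1%, and 7 were lower by as much, or 5.38%. Among all 666 groups of related tags past 10 TPM, named or not, 265 were higher, or 39.8%, and 31 were lower, or 4.65%. By the same criterion 3 of 3 members were higher. The median recognised miRNA was 1.56-fold higher, a log2 ratio of 0.64, and relative to that median the log2 ratios were 1.63 for miR-29a, 5.19 for miR-29b and 4.83 for miR-29c. Ratios above that of miR-29b were found for 0 of the 130 miRNAs, above that of miR-29c for 1 and above that of miR-29a for 28. Among the 666 tag groups these numbers were 20, 24 and 127.

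These ratios depend on how the libraries are scaled to each other. Scaling by the median of ratios lowered every log2 ratio by 0.74 and the trimmed mean of M values (TMM) lowered it by 0.40. Both factors were set over 135 recognised miRNAs with the miR-29 arms among them, whereas the median of 0.64 given above is over the other 130. With the median of ratios miR-29a was 2.89-fold, miR-29b 34.0-fold and miR-29c 26.6-fold higher in involution, and the other miRNAs then split into 44 higher and 32 lower. With TMM they split into 47 higher and 19 lower. The direction of the 3 members was the same under all scalings tried.

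Because the members differed in ratio, the make-up of the family differed between the stages, a comparison that needs no scaling between libraries. miR-29a made up 48.8% of the 3p tags of the family in involution (48.3 to 49.2%) and 90.5% in lactation (89.9 to 91.0%). miR-29b made up 19.2% in involution (18.8 to 19.6%) and 3.03% in lactation (2.72 to 3.36%). miR-29c made up 32.0% in involution (31.6 to 32.5%) and 6.47% in lactation (6.03 to 6.94%). There were 2.54 miR-29a tags for each miR-29b tag in involution and 29.9 in lactation, and 1.52 for each miR-29c tag in involution and 13.99 in lactation. There were 0.599 miR-29b tags per miR-29c tag in involution and 0.468 in lactation, and the direction of this difference depended on the tags counted. With tags identical to the reference alone the proportion was 0.559 in involution and 0.977 in lactation. The share of miR-29b in the family was then 19.7% in involution and 6.18% in lactation.

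**Figure D2:**
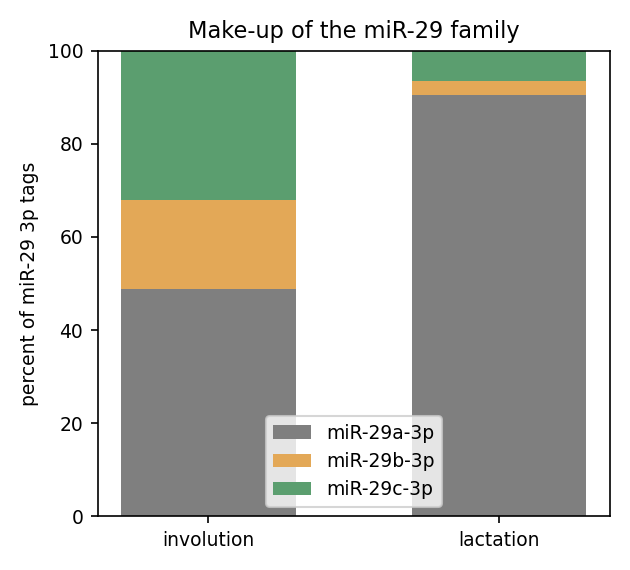
Percent of all miR-29 3p tags that belong to miR-29a, miR-29b and miR-29c, in involution (left bar) and lactation (right bar). miR-29a makes up 48.8% of the family in involution and 90.5% in lactation.

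Since miR-29a and miR-29c differ by 1 base, a sequencing miscall of the abundant member could be counted as the rarer one. At the other C positions of miR-29a, the mean share of tags with T in place of C was 0.0513% in involution and 0.0580% in lactation. At that rate 10.5 tags of miR-29c in involution and 6.01 in lactation would be miscalled miR-29a, which is 0.0781% of miR-29c tags in involution and 0.811% in lactation. With these subtracted, miR-29c was 44.8-fold higher in involution. This estimate rests on the mean rate, and the rate at base 10 itself cannot be read apart from miR-29c. The highest C-to-T share at another C position was 0.0831% in involution and 0.0966% in lactation. Some other substitutions were commoner and differed by library. A14C made up 0.0147% in involution (3 tags) and 0.840% in lactation (87 tags), and A13C 0.352% in involution and 0.135% in lactation.

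The 5p arms, the minor arms of these hairpins, gave 506 tags in involution and 192 in lactation, and their ratios did not follow those of the 3p arms. miR-29a-5p had 227 tags or 30.7 TPM in involution and 61 tags or 3.38 TPM in lactation, 9.09-fold higher (6.82 to 12.3). miR-29c-5p had 189 tags or 25.6 TPM in involution and 52 tags or 2.88 TPM in lactation, 8.87-fold higher (6.50 to 12.3). The intervals of these ratios overlapped, whereas the 3p arms of the same members were 4.84-fold and 44.5-fold higher with intervals far apart. The likeness of the 5p ratios depended on the tags counted. Tags identical to the reference numbered 109 in involution and 8 in lactation for miR-29a-5p. For miR-29c-5p they numbered 49 in involution and 20 in lactation. The ratios then stood further apart, with that of miR-29a-5p again the larger.

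The 5p arms of miR-29b were the rarest. miR-29b-1-5p had 21 tags or 2.84 TPM in involution and 39 tags or 2.16 TPM in lactation, a ratio of 1.31 whose interval held 1 (0.735 to 2.29). miR-29b-2-5p had 69 tags or 9.34 TPM in involution and 40 tags or 2.22 TPM in lactation, a ratio of 4.21 (2.81 to 6.38). Summed, the 5p arms of miR-29b were 2.78-fold higher in involution (2.03 to 3.81), against 56.9-fold for miR-29b-3p. That these arms come from a pair of hairpins with one 3p sequence is taken from human and mouse, not shown here for the goat.

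The balance of the arms therefore differed between stages. The 5p arm took 1.10% of miR-29b tags in involution (0.886 to 1.35%) and 18.5% in lactation (14.97 to 22.6%). For miR-29c it took 1.38% in involution (1.19 to 1.59%) and 6.56% in lactation (4.94 to 8.51%). For miR-29a the order was the opposite, with 1.09% in involution (0.956 to 1.24%) and 0.585% in lactation (0.448 to 0.751%). In involution the 3 members thus had 71.4 to 90.5 3p tags for each 5p tag. In lactation the same number was 170 for miR-29a, 14.25 for miR-29c and 4.39 for miR-29b.

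The 3′ ends of the tags also differed between stages. The most abundant end variants are shown for miR-29a and miR-29c, because the stages differed in which of them was the commonest. Each has the full 5′ end.
miR-29a, reference end: tAGCACCAtctgaaatcggtta
miR-29a, 1 base shorter: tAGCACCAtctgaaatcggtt
miR-29a, 2 bases shorter: tAGCACCAtctgaaatcggt
miR-29a, A added: tAGCACCAtctgaaatcggttaa
miR-29c, reference end: tAGCACCAtttgaaatcggtta
miR-29c, 1 base shorter: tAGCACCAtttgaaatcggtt
miR-29c, 2 bases shorter: tAGCACCAtttgaaatcggt
miR-29c, A added: tAGCACCAtttgaaatcggttaa
The commonest miR-29a tag was the 22-nt reference form in involution and the 21-nt form in lactation. The 22-nt form had 11043 tags in involution and 3015 in lactation, and the 21-nt form 5521 in involution and 4763 in lactation. For miR-29c the 22-nt form had 8650 tags in involution and 218 in lactation, and the 21-nt form 2588 in involution and 249 in lactation. The lactation shares of these miR-29c forms, 29.4% (26.2 to 32.8%) and 33.6% (30.2 to 37.1%), had overlapping intervals.

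Among tags that began at the first base, those that ended before the reference end made up 34.3% of miR-29a tags in involution (33.7 to 35.0%) and 65.7% in lactation (64.8 to 66.6%). For miR-29c the share was 23.7% in involution (23.0 to 24.4%) and 64.0% in lactation (60.4 to 67.4%). For miR-29b it was 29.6% in involution (28.6 to 30.6%) and 34.5% in lactation (29.5 to 39.8%), with intervals that overlapped. The ends of miR-29a and miR-29c, which share their last bases, thus differed between stages far more than those of miR-29b.

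**Figure D3:**
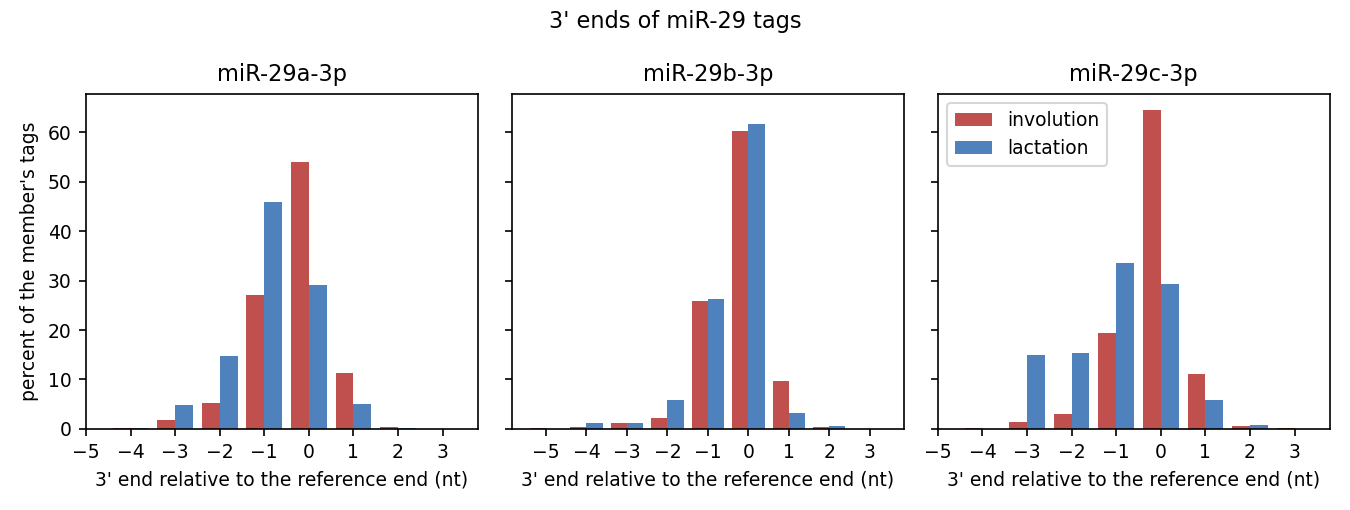
Percent of each member's tags by 3′ end, in nt from the end of the reference sequence (0), for tags that begin at the first base; involution is the left bar and lactation the right bar of each pair. In miR-29a and miR-29c the tallest bar is at 0 in involution and 1 base shorter in lactation, while in miR-29b it is at 0 in both. For miR-29c in lactation the shares at 0 and 1 base shorter have overlapping intervals.

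The size of the stage ratio therefore depended on which ends were counted. For miR-29a it was 2.52 for shorter tags, 8.94 for tags with the reference end and 10.9 for longer tags. For miR-29c it was 16.3 for shorter tags, 96.9 for the reference end and 78.4 for longer tags. For miR-29b it was 48.6 for shorter tags, 55.4 for the reference end and 152 for longer tags, the last resting on 810 tags in involution and 13 in lactation. Counted by tags identical to the reference alone, miR-29c stood above miR-29b in ratio, and miR-29a was 8.94-fold higher.

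Across the 106 recognised miRNAs with at least 300 tags in each library, a smaller share of short tags in involution was not general. Among the other 103, 49 had a smaller share of short tags in involution and 54 a larger one, with a median difference of 0.313 percentage points, involution minus lactation. miR-29c differed by -40.3 points and miR-29a by -31.4 points, places 105 and 103 of the 106 counted from the largest gain, and miR-29b by -4.94 points. Each reference end was that of the tag with the highest mean TPM over both libraries. For miRNAs far higher in involution it therefore leans toward the involution form. The part of this choice in the differences was not tested. The most negative difference was that of miR-451, a miRNA of red blood cells, at -50.4 points. The clean tags as a whole held more tags of 18 to 21 nt in involution. That is a length class over all tags, not a share relative to the end of each miRNA, so the measures are not alike.

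**Figure D4:**
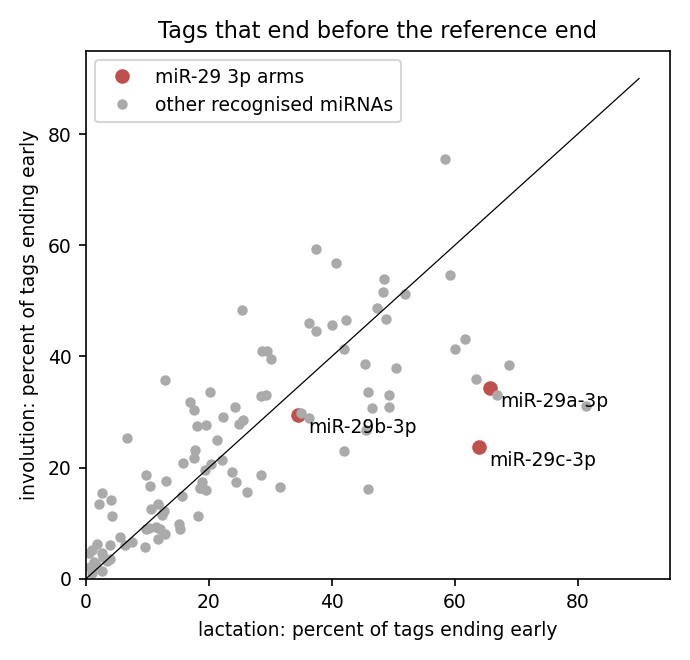
Percent of tags that end before the reference end in involution (vertical axis) against lactation (horizontal axis) for 106 recognised miRNAs, with the miR-29 3p arms in red and equality as a line. miR-29a and miR-29c lie far below the line, at 34.3% and 23.7% in involution against 65.7% and 64.0% in lactation.

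Tags longer than the mature end mostly carried 1 further base. For miR-29a this base was A in 71.6% of such tags in involution and 68.1% in lactation, and T in 23.8% in involution and 25.5% in lactation. For miR-29c it was A in 73.2% in involution (1090 of 1489 tags) and 39.5% in lactation (17 of 43 tags). For miR-29b it was A in 53.8% in involution (415 of 771 tags), and lactation had 11 such tags. Without a genome sequence, an added base that is encoded and one that is not cannot be told apart.

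At the 5′ end, the start of the tag sets the seed, so a start 1 base upstream moves the seed by 1 base. Tags of this kind with a C before the mature sequence are shown with their own bases 2 to 8 in capitals.
miR-29a, upstream C: cTAGCACCatctgaaatcggtt
miR-29b, upstream C: cTAGCACCatttgaaatcagtg
miR-29c, upstream C: cTAGCACCatttgaaatcggtta
These tags lie outside the counts given above. With them included in the total, the upstream C form made up 4.27% of miR-29a tags in involution (4.001 to 4.54%, 925 tags) and 14.1% in lactation (13.5 to 14.8%, 1704 tags). In each library this was the highest share of upstream C among the 106 miRNAs. The other 103 had a median of 0.147% and a maximum of 3.001% in involution, and a median of 0.0205% and a maximum of 4.15% in lactation. For miR-29b the share was 2.62% in involution (221 tags) and 4.67% in lactation (17 tags), with overlapping intervals. For miR-29c it was 0.546% in involution (75 tags) and 0.670% in lactation (5 tags). The upstream C form of miR-29a was 1.33-fold higher in involution (1.22 to 1.44), below the 4.82-fold of tags starting at the first base. A start 1 base upstream was not particular to miR-29a once any base was counted. Its share was then 5.24% in involution, place 7 of the 106, and 14.1% in lactation, place 6. The highest share among the other 103 was 66.3% in involution and 73.6% in lactation.

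The base composition of a miRNA can influence its recovery, so the members were set beside miRNAs within 5 percentage points of their GC content. miR-29b, with 34.8% GC, had 27 such neighbours with a median log2 ratio of 1.76 and a highest of 4.89, against its own 5.83. miR-29c, with 36.4% GC, had 45 with a median of 0.74 and the same highest value, against its own 5.48. miR-29a, with 40.9% GC, had 60 with a median of 0.56, of which 13 were above its own 2.27. Over 130 miRNAs the log2 ratio fell by 0.20 for each 10 points of GC, a weak trend (r = -0.10, across miRNAs that share both libraries).

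**Figure D5:**
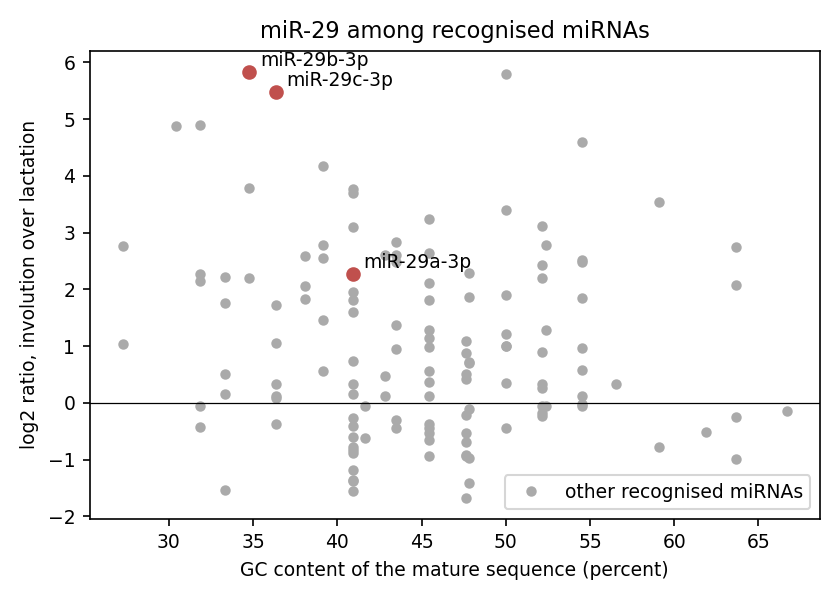
Log2 ratio of involution over lactation (vertical axis) against GC content of the reference sequence (horizontal axis) for recognised miRNAs that reached 10 TPM; grey points are other miRNAs and red points the miR-29 3p arms. miR-29b at 5.83 and miR-29c at 5.48 lie above all miRNAs outside the family within 5 points of their GC content.

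Other miRNAs reported to act on matrix or fibrosis in animal or cell studies were set beside the family. Of 20 listed, 18 reached 10 TPM, and 7 of these (38.9%) passed the 2-fold criterion upward in involution, 0 downward and 11 in neither direction. That share is near the background of 43.1% of recognised miRNAs and 39.8% of tag groups, so it is no result about the list. Their median log2 ratio was 0.40, beside 0.64 over the 130 miRNAs, and their summed level was 74824 TPM in involution and 84527 TPM in lactation. Of 7 reported as profibrotic 2 were higher (28.6%), and of 11 reported as antifibrotic or matrix restraining 5 were (45.5%), against the same 43.1%. With so few members the classes were not compared with each other. miR-21, reported as profibrotic, had 20263 TPM in involution and 18634 TPM in lactation, a ratio of 1.09. miR-30a, reported as antifibrotic, had 17883 TPM in involution and 34934 TPM in lactation, a ratio of 0.512. miR-200c, which restrains epithelial-to-mesenchymal transition, had 11255 TPM in involution and 15212 TPM in lactation, a ratio of 0.740. The 3 most abundant of the list thus stayed within 2-fold when scaled to clean tags. With the median of ratios, which multiplies every ratio by 0.598, miR-30a and miR-200c would be more than 2-fold lower in involution. The count of 0 downward therefore also depends on the scaling.

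The miRNAs nearest to each member in log2 ratio were sought among 99 with at least 100 TPM in a library, a likeness over 1 ratio of 2 libraries. Nearest to miR-29a were miR-451 at 4.62-fold, miR-26b at 4.44-fold and miR-361 at 4.35-fold. Nearest to both miR-29b and miR-29c were miR-193a at 55.3-fold, miR-135a at 29.4-fold and miR-375, which is enriched in some epithelia, at 24.2-fold. Of these, miR-193a rested on 748 tags in involution and 33 in lactation.

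Marker miRNAs of the cell types of the gland gave the following beside the family, each count to be read against the 43.1% of recognised miRNAs that were higher in involution. Of 7 stromal and smooth muscle markers 2 were at least 2-fold higher in involution (28.6%), with a summed level of 291086 TPM in involution and 267664 TPM in lactation. Most of that was miR-143, with 286130 TPM in involution and 262761 TPM in lactation. miR-10b had 2757 TPM in involution and 4185 TPM in lactation, and miR-145, a smooth muscle miRNA, 1283 TPM in involution and 147 TPM in lactation. Of 10 epithelial markers 3 were higher, with 26248 TPM in involution and 21450 TPM in lactation. The difference of these sums came from miR-375, with 5039 TPM in involution and 208 TPM in lactation. The other 9 summed to 21209 TPM in involution and 21241 TPM in lactation. Of these, 5 had ratios of 0.544 to 0.758 with intervals below 1, short of the 2-fold criterion: miR-200c, miR-182, miR-183, miR-429 and miR-203. The marker counts, ratios and sums are all for scaling to clean tags. The median of ratios multiplies every ratio by 0.598, which would take these 5 past the 2-fold criterion downward. Ratios of miR-200b, miR-200a, miR-141 and miR-205 lay between 1.26 and 5.59, with miR-205 at 653 TPM in involution and 117 TPM in lactation. The most abundant epithelial markers over both libraries were miR-200c, given above, miR-141, with 4448 TPM in involution and 1709 TPM in lactation, and miR-200b, with 3234 TPM in involution and 2562 TPM in lactation.

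Leukocyte markers were low in level. Of 6 past 10 TPM, 5 were at least 2-fold higher (83.3%, beside 43.1% of the 130 miRNAs), with 1677 TPM summed in involution and 1383 TPM in lactation. Both arms of the miR-142 hairpin were counted separately among the 6, and both were among the 5. miR-155 had 648 TPM in involution and 1152 TPM in lactation, miR-142-3p 542 TPM in involution and 164 TPM in lactation, and miR-342 183 TPM in involution and 17.4 TPM in lactation. Of 3 erythroid markers 2 were higher (66.7%), with 3136 TPM in involution and 923 TPM in lactation. Of 2 endothelial arms 1 was higher, with 7085 TPM in involution and 7584 TPM in lactation. These lists are too short for their counts to be set apart from that background. No marker of these lists was at 0 in either library. The part of cell composition in the miR-29 ratios was not tested.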

How the data were processed

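Small RNA of 18 to 30 nt was selected, ligated to adaptors, amplified and sequenced on the Solexa platform, per the labels' protocols. The deposited files hold raw counts, the number of reads of each distinct clean tag. The authors' filter logs were tied to the libraries by equal clean-read totals. Identical reads are listed once, with aligner, tool versions and genome build not given in the sources used here. Clean tags numbered 7385833 in involution and 18031615 in lactation, of 18 to 44 nt.

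The table of reference miRNAs assumed in the design was not used here. A total of 154 conserved miRNAs were instead recognised by short keys written from general knowledge, the first 9 bases plus distinguishing bases. The most abundant deposited tag of 21 to 24 nt with the key, by mean TPM over both libraries, served as reference sequence. Levels are counts per 1000000 clean tags (TPM). Intervals are exact Poisson, Clopper-Pearson for shares, and conditional Clopper-Pearson for ratios. Tags are PCR reads without molecular identifiers. A count of 0 was taken to allow up to 3 tags, or 0.406 TPM in involution and 0.166 TPM in lactation, a fixed limit not taken from the Poisson intervals. Higher or lower means at least 2-fold with the interval beyond 1 and 10 TPM in a library.

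The members, lists and rules were chosen with earlier results of these data known. Named miRNAs are the family, the 3 nearest in ratio to each member, and the 3 most abundant of the matrix, stromal, epithelial and leukocyte lists. The 5 most abundant end variants of each member were tabulated. Named after their values were seen were miR-451, as the miRNA with the most negative difference in short tags, and the epithelial markers miR-182, miR-183, miR-429, miR-203, miR-200a and miR-205. Muscle and liver markers were measured too: of 3 muscle markers 1 was at least 2-fold higher and of 2 liver markers past the level 0 were. Alternatives covered scaling, tag assignment, tag length, depth, GC content and miscalls. The procedure was tested on simulated counts. Python 3.11.15, numpy 2.4.6, scipy 1.17.1, R 4.3.3 and edgeR 4.0.16 (TMM factors) were used.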

Additional observations from a re-analysis of the deposited data

How the results depend on the processing

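Over 34 alternative values of the ratios of the 3 members, each stayed at least 2-fold higher in involution. Of all 81 alternative values, 53 stayed within the limits set around the main value, 27 moved outside them and 1 turned in direction. A turn was defined for ratios only, so shares and counts could not turn. The value that turned was the proportion of miR-29b to miR-29c tags, 1.28 times higher in involution. With identical tags it was 0.572 times that of lactation, a check chosen after seeing the data. The miR-29a ratio, 4.84, was 5.17 scaled to miRNA tags, 2.89 with the median of ratios, 3.68 with TMM, 5.00 with totals without miR-143, 8.94 with identical tags, 4.58 with 1 mismatch allowed, 5.11 with tags of 20 to 24 nt and 4.42 with the GC trend removed. The miR-29b ratio, 56.9, was 34.0 with the median of ratios, 43.2 with TMM and 45.2 with the GC trend removed. The miR-29c ratio, 44.5, was 26.6 with the median of ratios, 33.8 with TMM, 96.9 with identical tags, 52.8 with tags of 20 to 24 nt, 41.2 with lactation thinned to the involution total and 36.7 with the GC trend removed. The GC trend removed was fitted with the miR-29 arms included, so it is not the trend given above over the 130 other miRNAs. The count of other miRNAs at least 2-fold lower, 7, was 32 with the median of ratios, 19 with TMM and 13 with identical tags, while the count of higher ones, 56, ranged between 44 and 62. With identical tags miR-29a made up 45.0% of the family in involution and 87.5% in lactation, miR-29b 19.7% in involution and 6.18% in lactation, and miR-29c 35.3% in involution. With tags starting at the first base alone, the 5p arm took 0.241% of miR-29a tags in lactation and 1.01% of miR-29c tags in involution. The shares of short tags, recomputed with tags lacking 1 or 2 bases by a choice made after seeing the data, moved by less than their intervals. Counting every tag that matches the hairpin was not run, since no hairpin sequence was used here. No paired analysis was possible because each stage had 1 library. Depth limits the 5p arms, with 21 to 227 tags each in involution and 39 to 61 in lactation, and the rarer end variants of miR-29b in lactation. The spread between goats or library preparations is not covered by any interval.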

Other observations

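Tags with an A before the mature sequence, a start 1 base upstream, numbered 197 for miR-29a, 116 for miR-29b and 142 for miR-29c in involution. In lactation they numbered 0 for each of the 3 members, where a count of 0 was taken to allow up to 0.166 TPM. Such tags were not particular to the family. The share of upstream A was higher in involution for 97 of the 103 other miRNAs, and 65 of them were at 0 in lactation.

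Tags of 22 nt in which the last base of the miR-29a reference was T in place of A numbered 596 in involution and 824 in lactation, 1.77-fold higher in involution (1.59 to 1.96). The same form of miR-29c had 492 tags in involution and 17 in lactation, 70.7-fold higher (43.7 to 122).

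Tags that held the first 18 bases of a member further inside the tag numbered 152 for miR-29a, 78 for miR-29b and 75 for miR-29c in involution, against 50, 5 and 2 in lactation.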
